A study of Arabidopsis thaliana with 9 samples.

Results

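The WRKY transcription factors were taken as all rows of the deposited gene table whose name is WRKY followed only by a number, and 70 of the 32833 genes listed met that rule. Leaf RNA of Arabidopsis thaliana, natural accession Shahdara, was sequenced from 9 week old plants in 3 groups of 3 libraries: a line labelled IAA26 stable, a line labelled IAA26 knockout and the wild type, which the labels give as the control. IAA26 is an Aux/IAA repressor, a protein that holds auxin-responsive transcription down until auxin triggers its destruction, and the series asks how the lines affect development and defence. The labels give no promoter, allele or number of independent lines for either IAA26 line, so each line stands for itself. They call the libraries biological replicates without naming the plants, so the p values below measure the spread between these libraries. All plants share the Shahdara background, and the mapping build was TAIR10, which is the Columbia genome.

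WRKY proteins bind DNA through a conserved domain that combines a short signature motif with a zinc finger, and their usual binding site is the W box. Class I members carry a pair of these domains, class II members carry a single domain and are split into subclasses IIa to IIe, and class III members carry a single domain with a different zinc finger. In leaves the family is known for immunity and senescence: MAP kinases switch members on after pathogen sensing, several members repress or activate each other's genes through W boxes in their own promoters, and others act in phosphate nutrition, trichomes and seed coats. WRKY16 and WRKY52, which are fused to resistance proteins, are listed under other names in the table and lie outside the rule. The classes used below are the textbook ones and hold 14 members of class I, 3 of IIa, 8 of IIb, 18 of IIc, 7 of IId, 7 of IIe and 13 of class III.

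The family is known to be wired through W boxes in its own promoters, so the 250 bases before the annotated gene start are shown for 6 members whose levels the results turn on: WRKY33, the related pair WRKY11 and WRKY17, which moved in opposite directions, the class IIa pair WRKY40 and WRKY18, and WRKY53. They were read from the RefSeq TAIR10.1 assembly 5′ to 3′ along the gene's strand. Capitals mark the W-box core TTGAC on either strand, so that a core on the opposite strand appears as GTCAA. The sequences are those of the Columbia reference and not of Shahdara.
WRKY33, chr2:16107985-16108234, plus strand: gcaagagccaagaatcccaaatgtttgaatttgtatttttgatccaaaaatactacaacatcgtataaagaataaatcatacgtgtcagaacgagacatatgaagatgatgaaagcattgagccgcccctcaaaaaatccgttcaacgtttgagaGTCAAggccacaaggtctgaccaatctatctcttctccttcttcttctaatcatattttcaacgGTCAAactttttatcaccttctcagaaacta
WRKY11, chr4:15291935-15292184, minus strand: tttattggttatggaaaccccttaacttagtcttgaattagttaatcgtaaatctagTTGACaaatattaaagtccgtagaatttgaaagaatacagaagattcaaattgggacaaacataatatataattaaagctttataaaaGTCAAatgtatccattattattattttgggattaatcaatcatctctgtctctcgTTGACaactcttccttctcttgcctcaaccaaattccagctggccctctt
WRKY17, chr2:10439470-10439719, minus strand: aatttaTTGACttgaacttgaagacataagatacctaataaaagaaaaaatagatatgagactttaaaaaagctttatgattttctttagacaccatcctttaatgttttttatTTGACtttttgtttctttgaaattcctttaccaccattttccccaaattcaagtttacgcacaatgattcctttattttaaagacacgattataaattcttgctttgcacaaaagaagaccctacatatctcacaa
WRKY40, chr1:30383311-30383560, plus strand: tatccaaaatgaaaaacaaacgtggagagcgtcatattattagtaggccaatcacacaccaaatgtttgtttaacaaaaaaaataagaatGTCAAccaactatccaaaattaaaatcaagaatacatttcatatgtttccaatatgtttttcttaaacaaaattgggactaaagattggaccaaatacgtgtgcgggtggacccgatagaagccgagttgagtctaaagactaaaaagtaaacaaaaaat
WRKY18, chr4:15382527-15382776, plus strand: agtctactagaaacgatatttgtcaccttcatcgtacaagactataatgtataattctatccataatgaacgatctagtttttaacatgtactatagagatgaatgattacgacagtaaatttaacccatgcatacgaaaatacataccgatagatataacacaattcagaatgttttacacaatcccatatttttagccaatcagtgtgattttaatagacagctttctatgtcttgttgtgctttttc
WRKY53, chr4:12393983-12394232, minus strand: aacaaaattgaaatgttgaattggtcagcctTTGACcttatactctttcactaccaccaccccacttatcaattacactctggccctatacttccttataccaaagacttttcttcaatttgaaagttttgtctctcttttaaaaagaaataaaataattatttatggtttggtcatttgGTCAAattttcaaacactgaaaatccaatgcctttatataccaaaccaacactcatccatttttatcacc

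A full W box was counted as TTGACC or TTGACT and the core as TTGAC, both on either strand, so that every full box also counts as a core. A core lay in 36 of the 70 WRKY windows (51.4%), against 44.9% of the windows of the same length before all 27443 nuclear protein-coding genes in the table. At least 2 cores lay in 17 WRKY windows (24.3%), against 14.1% of all windows, and a full box in 24 (34.3%), against 28.4%. WRKY33 held 2 cores, which begin 95 and 31 bases before its start and both form full boxes. WRKY11 held 3, at 193, 105 and 50 bases before its start, of which 1 forms a full box. WRKY17 held 2 full boxes, WRKY53 held 2, WRKY40 held 1 core that is no full box, and WRKY18 held none in this window. These counts describe letters in a sequence and are no measure of binding.

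Sequencing depth was similar in the groups, with 28585976 to 36684424 exon reads per library in the stable line, 33066761 to 36547078 in the knockout-labelled line and 34325905 to 45346301 in the wild type. IAA26 itself was read at 12.7, 9.81 and 10.3 RPKM in stable libraries 1, 2 and 3, at 16.7, 17.2 and 12.4 RPKM in the knockout-labelled libraries and at 17.5, 18.5 and 20.3 RPKM in wild type libraries (RPKM: exon reads per kilobase of exon, scaled to library depth). Its RNA was present in the knockout-labelled libraries, with a log2 fold change of -0.40 against wild type (SE 0.11, edgeR adjusted p = 0.12). It fell by 0.70 on the log2 scale in the line labelled stable against wild type (SE 0.12, edgeR adjusted p = 0.0112). The RNA level therefore checks neither label. Libraries of a group were not alike. On the first principal component of all genes, which held 44.3% of the variance, stable 1 lay at -3.01 and the other stable libraries at 87.8 and 71.5, while knockout-labelled library 3 lay at -4.58 and the other knockout-labelled libraries at -56.7 and -51.5. Summed markers of leaf mesophyll, 4 genes, spanned 6541 to 17174 RPKM in stable, 6140 to 10922 RPKM in knockout-labelled and 7023 to 9811 RPKM in wild type libraries. Summed floral organ markers (AP3, PI, AG and SEP3) reached 8.75 RPKM in stable and 5.36 RPKM in wild type libraries, and 23.4 RPKM in knockout-labelled library 3, which alone of its group had AP3 at 4.46 RPKM against 0.15 and 0.30 RPKM. Summed phloem markers (SUC2 and SWEET11) were at 171 to 230 RPKM in stable, 233 to 260 RPKM in knockout-labelled and 322 to 335 RPKM in wild type libraries, and none of these 6 markers was at 0 in any library. Summed xylem markers (XCP1 and XCP2) were at 2.07 to 12.04 RPKM in stable, 1.57 to 6.28 RPKM in knockout-labelled and 2.89 to 6.68 RPKM in wild type libraries. The root marker PYK10 was at 5.24 to 11.2 RPKM in stable, 2.59 to 6.34 RPKM in knockout-labelled and 3.73 to 10.4 RPKM in wild type libraries. The part of these differences in the WRKY values was not tested.

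The WRKY family as a whole had its highest mean level in the stable line. The 70 genes summed to 1108, 782 and 613 RPKM in stable libraries 1, 2 and 3, to 478, 552 and 464 RPKM in the knockout-labelled libraries and to 383, 560 and 627 RPKM in wild type libraries. The stable libraries lay above every knockout-labelled library, and the lowest stable library lay just under the highest wild type library. As shares of all exon reads these were 0.167 ± 0.049% in stable, 0.106 ± 0.0088% in knockout-labelled and 0.108 ± 0.025% in wild type libraries (SD, n = 3 each). WRKY33 alone made up 26.5%, 15.2% and 21.4% of the summed RPKM in the stable libraries, against 9.27%, 9.58% and 10.8% in the knockout-labelled and 7.55%, 10.3% and 11.5% in the wild type libraries. Without WRKY33 the family's shares of exon reads were 0.158%, 0.129% and 0.0968% in stable libraries. They were 0.0943%, 0.105% and 0.0879% in knockout-labelled and 0.0745%, 0.102% and 0.113% in wild type libraries. The stable mean was still the highest, but stable library 3 then lay below knockout-labelled library 2. In whole leaves, fewer cells of a type and less RNA per cell cannot be told apart.

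**Figure D1:**
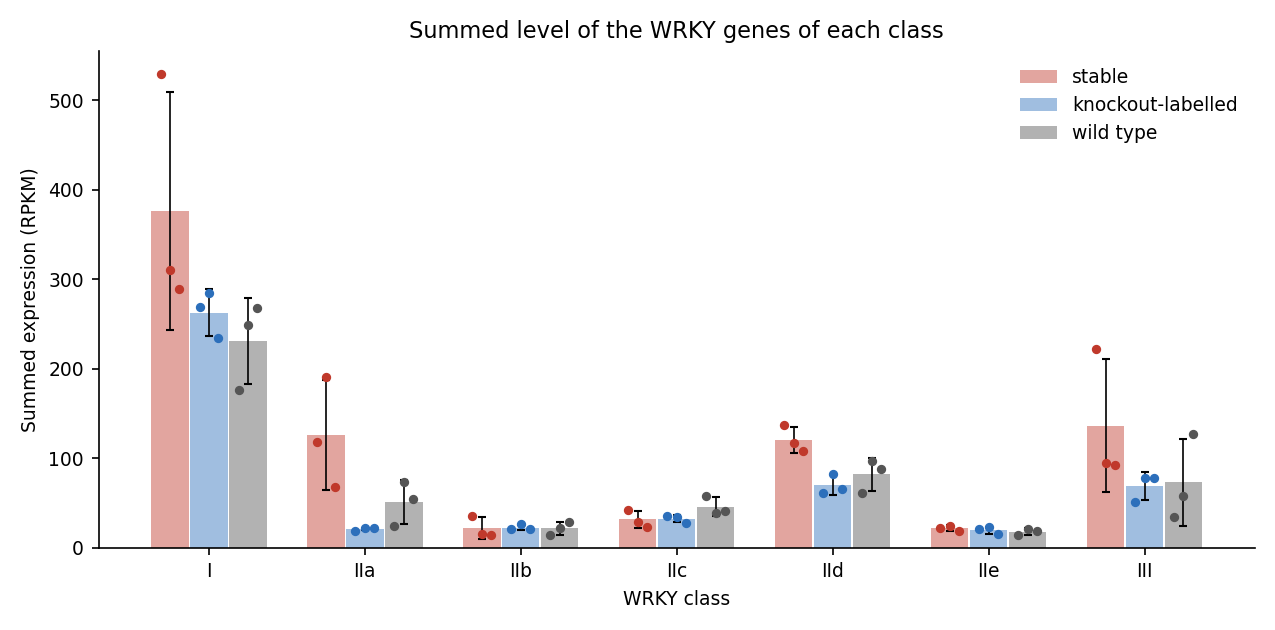
Summed expression in RPKM (y axis) of the WRKY genes of each class (x axis) for the stable line, the knockout-labelled line and the wild type. Bars are means, error bars SD over 3 libraries, and points single libraries; classes I, IIa, IId and III carry most of the family's RNA, and class IIa sums were 119, 191 and 68.4 RPKM in stable against 19.3, 22.1 and 21.9 RPKM in knockout-labelled libraries.

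Class I gave the largest sums, with 376 ± 133 RPKM in stable, 263 ± 26.1 RPKM in knockout-labelled and 231 ± 48.3 RPKM in wild type libraries (SD, n = 3 each). Class IIa, with only 3 genes, held 126 ± 61.6 RPKM in stable, 21.1 ± 1.53 RPKM in knockout-labelled and 51.01 ± 24.9 RPKM in wild type libraries. Class IId held 121 ± 14.9 RPKM in stable, 70.3 ± 11.3 RPKM in knockout-labelled and 82.0 ± 18.8 RPKM in wild type libraries, and its lowest stable library lay above every library of the other groups. Class III held 137 ± 74.5 RPKM in stable, 69.1 ± 15.7 RPKM in knockout-labelled and 73.2 ± 48.5 RPKM in wild type libraries, with overlapping groups. Class IIc was the class with a lower mean in both lines, at 31.7 ± 9.89 RPKM in stable and 32.6 ± 3.98 RPKM in knockout-labelled libraries against 46.1 ± 10.4 RPKM in wild type libraries. Its stable and wild type groups overlapped, as stable library 1 at 42.8 RPKM lay above wild type libraries 2 and 3 at 39.3 and 40.9 RPKM. Wild type library 1 was the highest at 58.1 RPKM, and the class IIc gene WRKY75 was high in that library alone. Classes IIb and IIe averaged 18.1 to 22.7 RPKM in every group.

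Of the 70 members, 53 had enough reads to be tested, 46 averaged at least 1 RPKM over the 9 libraries and 15 averaged at least 10 RPKM. WRKY33 was the most abundant at a mean of 94.5 RPKM, followed by WRKY70 at 47.5, WRKY26 at 39.4, WRKY15 at 35.6, WRKY18 at 35.1, WRKY3 at 33.3, WRKY25 at 29.6 and WRKY11 at 27.6 RPKM. The mean RPKM was highest in the stable line for 20 of the 53 tested members, in the knockout-labelled line for 19 and in the wild type for 14. These counts depend on the scaling, since RPKM carries no TMM factor. The TMM factors of the edgeR fit were 0.876 to 1.02 in stable, 1.04 to 1.10 in knockout-labelled and 0.988 to 0.999 in wild type libraries. WRKY26 averaged 42.97 RPKM in knockout-labelled and 42.4 RPKM in stable libraries, while its edgeR estimate was higher in the stable line. Stable library 1 was above both other stable libraries for 41 of the 53, by at least 2-fold for 13, and was the highest of all 9 libraries for 16. Wild type library 1 was the lowest of all for 18.

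**Figure D2:**
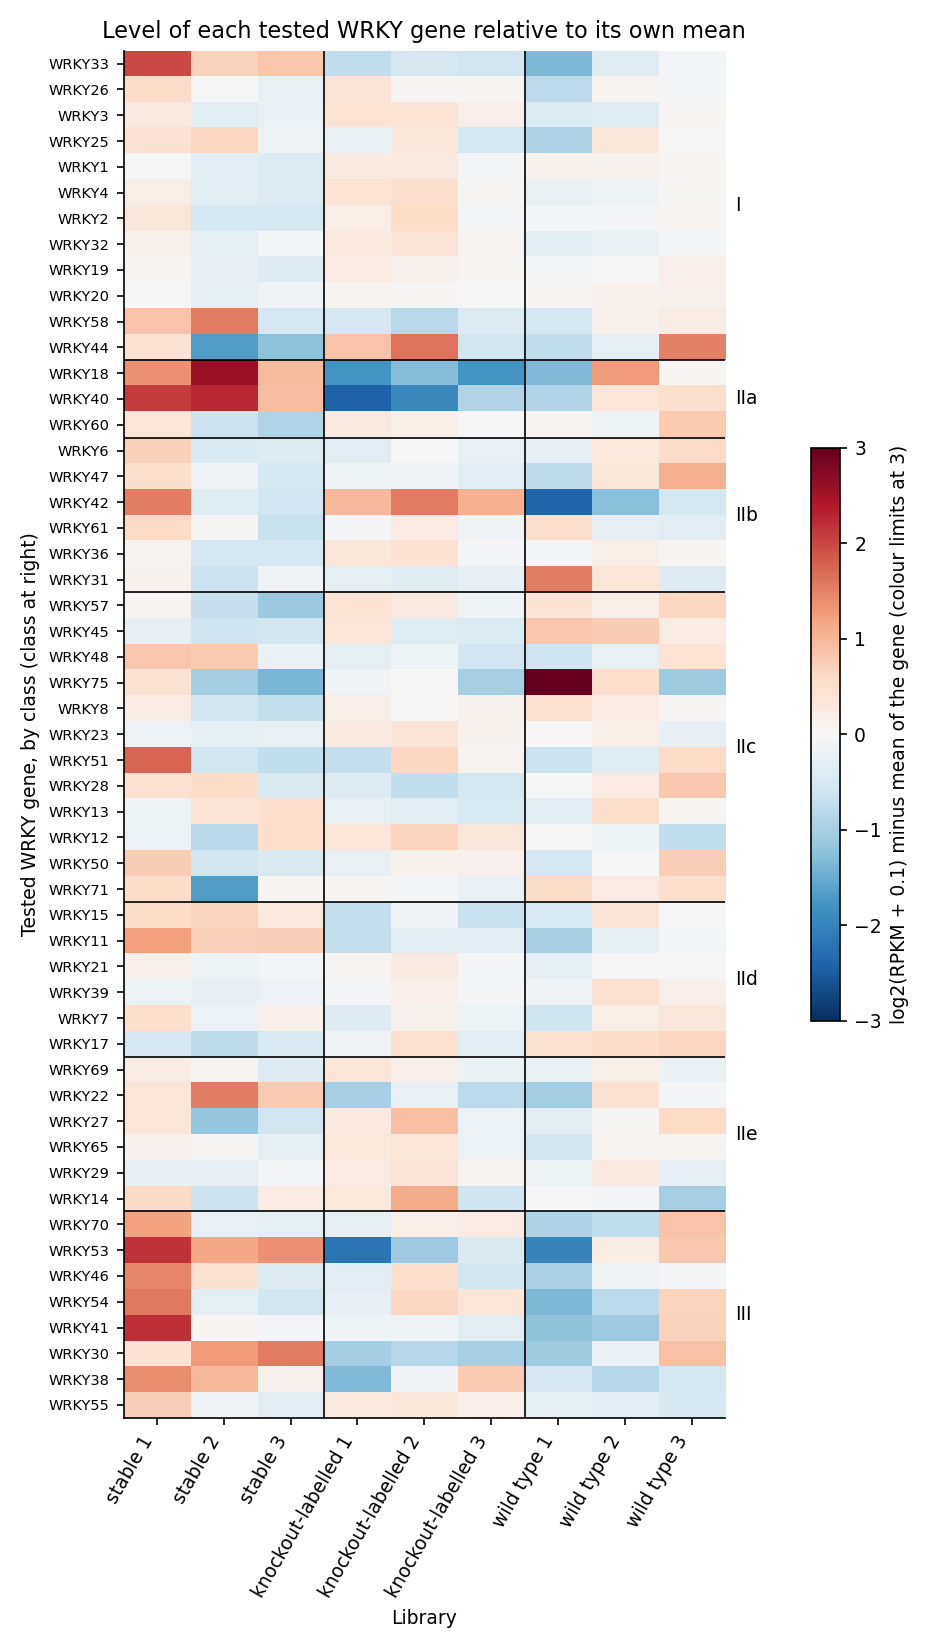
Each row is 1 of the 53 tested WRKY genes, grouped by class and ordered by mean level, and each column is 1 library of the stable line, the knockout-labelled line or the wild type. Colour gives log2(RPKM + 0.1) minus the gene's mean over the 9 libraries; WRKY18, WRKY40 and WRKY53 are red in the stable libraries and blue in the knockout-labelled ones, and WRKY75 stands out in wild type library 1 alone.

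The comparisons below are from edgeR's quasi-likelihood test on exon read counts with all 9 libraries in the fit, and a gene counts as called at a Benjamini-Hochberg adjusted p under 0.05 over the 19409 genes tested. Fold changes are given on the log2 scale, each with a standard error (SE). The 3 comparisons share groups, so a gene that is high in the stable line enters more than 1 of them.

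Against wild type, the stable line had 4 WRKY genes called, WRKY11 and WRKY33 higher and WRKY17 and WRKY45 lower. That is 4 of 53 where 8.87% of all genes were called, 2 higher where 5.09% of all genes were higher and 2 lower where 3.78% were lower, so the family was called about as often as genes in general. The median log2 fold change was 0.17 over the 53 members and 0.01 over all genes. The groups did not overlap, on TMM-scaled counts, for 8 members that were higher and 5 that were lower in the stable line, against 14.1% and 14.2% of all genes. Before adjustment (p under 0.05) edgeR gave 11 members higher and 5 lower, where 14.4% and 12.7% of all genes were. DESeq2 called 7 higher and 4 lower, against 9.58% and 8.03% of all genes, and limma-voom 3 higher and 2 lower, against 4.72% and 3.56%. Without stable library 1 there were 7 calls among 54 members tested, where 3786 of 19708 genes were called. There were 2 without stable library 2, where 584 of 19691 genes were called. There were also 2 without wild type library 1 (744 of 19706 genes) or wild type library 2 (1303 of 19688 genes). The direction of the 4 called genes was the same in each of those fits.

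Against wild type, the knockout-labelled line had no WRKY gene called by edgeR, where 1.66% of all genes were called, 0.927% higher and 0.732% lower. Before adjustment (p under 0.05) edgeR gave 3 members higher and 10 lower, where 9.77% and 9.85% of all genes were. At the adjusted threshold limma-voom called 0 members, where 0.912% of all genes were higher and 0.763% lower. DESeq2 called 6, with WRKY42 higher, where 4.04% of all genes were, and WRKY17, WRKY18, WRKY28, WRKY40 and WRKY45 lower, where 5.12% were. The median log2 fold change was -0.10 over the members and 0.00 over all genes. The member median was 0.01 under library totals alone, where that of all genes was 0.12. Without wild type library 3 it was 0.02, where that of all genes was 0.01. The groups did not overlap for 5 members that were higher and 7 that were lower, against 15.1% and 14.3% of all genes.

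The largest number of WRKY calls, 8, came from the stable line against the knockout-labelled line. Higher in the stable line were 8 of 53 members, WRKY11, WRKY15, WRKY18, WRKY22, WRKY30, WRKY33, WRKY40 and WRKY53, where 4.87% of all genes were called higher, and edgeR called none lower, where 2.09% of all genes were. Before adjustment (p under 0.05) edgeR gave 12 members higher and 2 lower, where 16.6% and 14% of all genes were. DESeq2 called 12 higher and 0 lower, against 11.4% and 7.38% of all genes, and limma-voom 5 higher and 0 lower, against 3.76% and 1.61%. Calls in either direction made up 6.96% of all genes. For 14 members the stable line lay wholly above the knockout-labelled line and for 1 wholly below, against 16.3% and 15.3% of all genes. The median log2 fold change was 0.14 over the members and 0.00 over all genes. The sign of the member median was not stable. It was -0.08 without stable library 1, where the median of all genes was -0.01. Under library totals alone it was -0.02, where that of all genes was -0.19. These calls rest on the full set of libraries. None was made by edgeR without stable library 2, knockout-labelled library 1 or knockout-labelled library 2, where 158, 3 and 8 genes were called in all. Without knockout-labelled library 3, 2 were made, where 869 genes were called in all. Without stable library 1, edgeR called 13 members, 10 higher and 3 lower, with 5241 genes called in all.

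**Figure D3:**
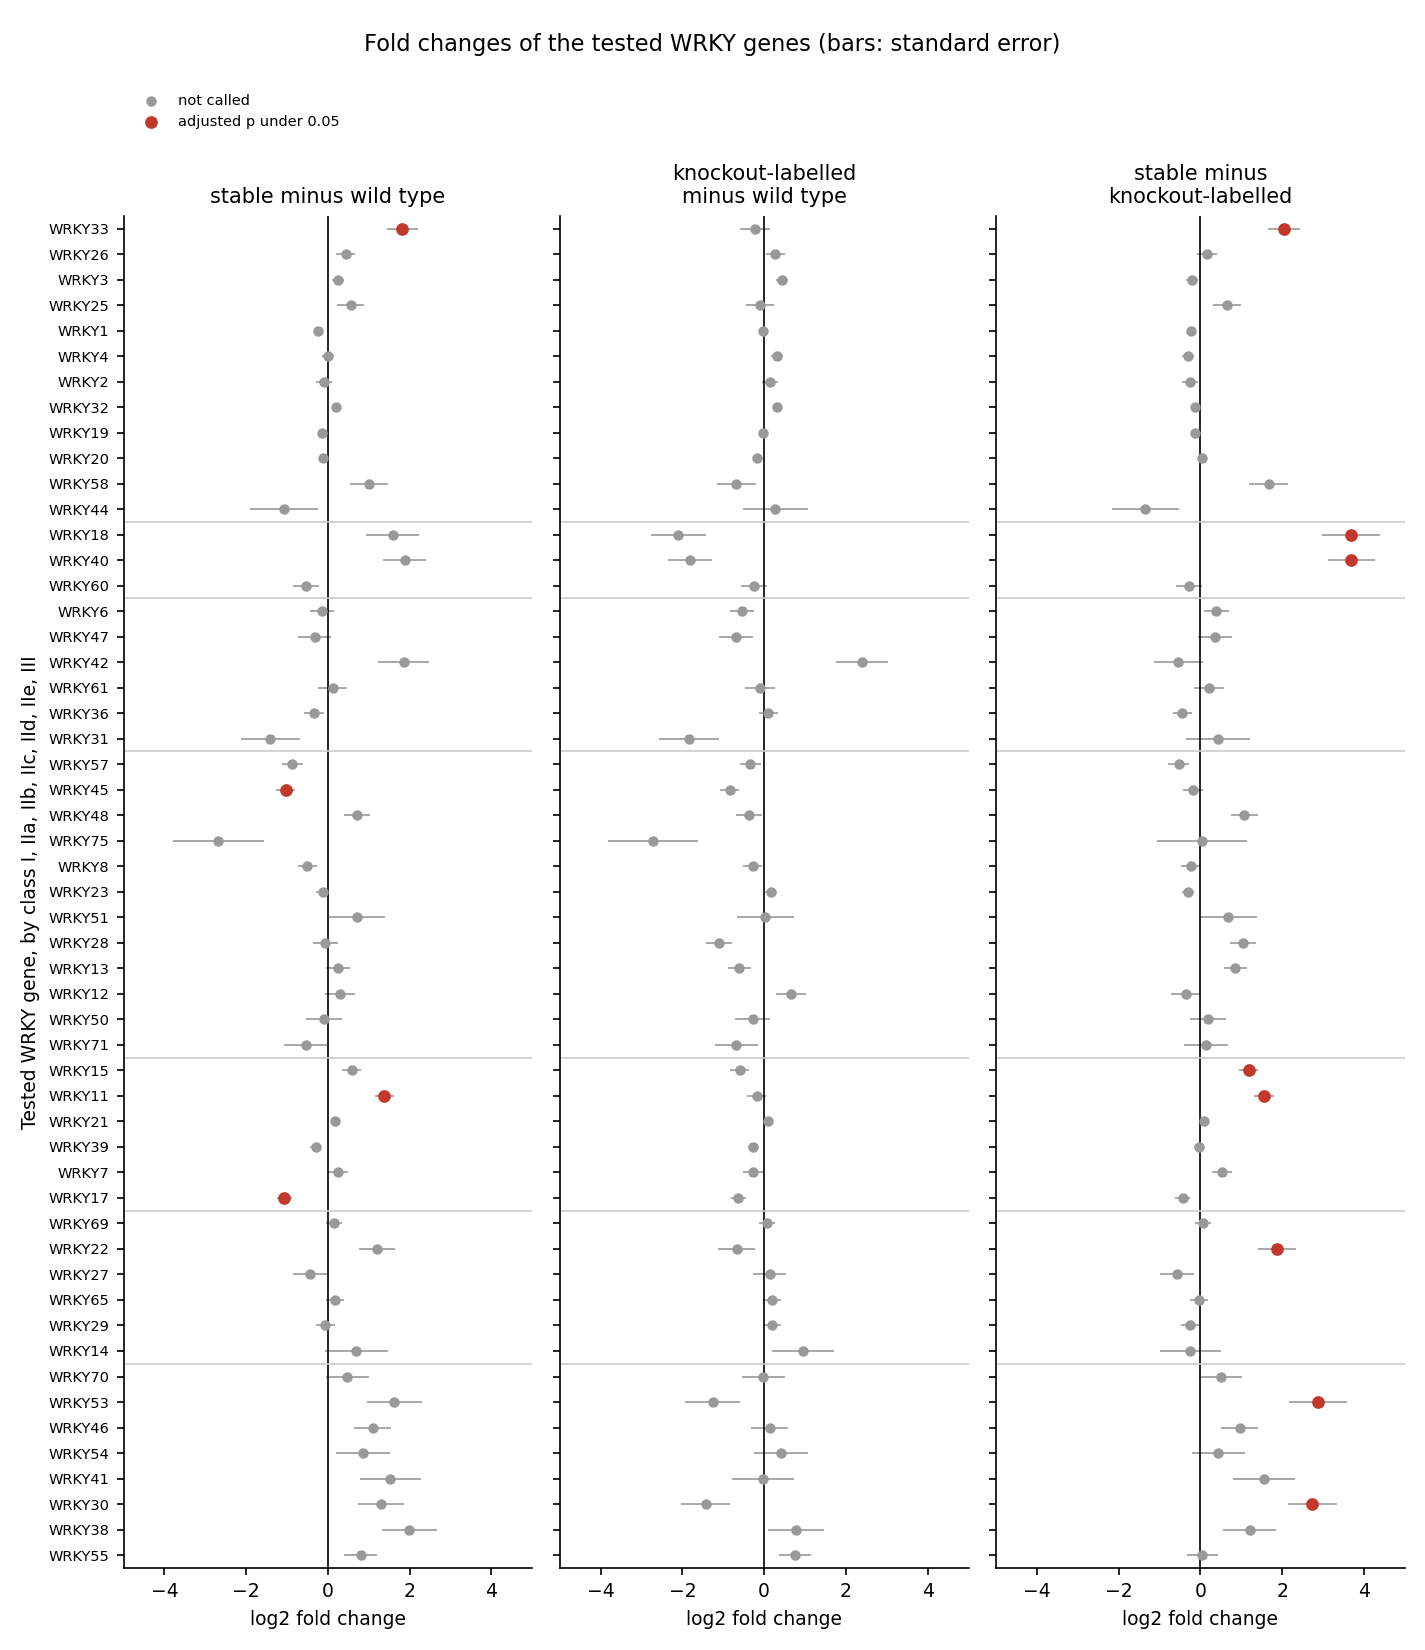
Log2 fold changes (x axis) of the 53 tested WRKY genes (y axis, by class) for stable minus wild type, knockout-labelled minus wild type and stable minus knockout-labelled. Points are edgeR estimates, bars their standard errors, and red points have an adjusted p under 0.05; 4, 0 and 8 genes are red in the 3 panels.

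WRKY33, a class I factor that MAP kinases phosphorylate and that switches on camalexin synthesis and resistance to necrotrophic fungi, was the most abundant WRKY transcript of the stable line. It had 293, 119 and 131 RPKM in stable libraries, 44.3, 52.9 and 50.1 RPKM in knockout-labelled libraries and 28.9, 57.9 and 72.3 RPKM in wild type libraries. Every stable library lay above every other library, and stable library 1 stood far above the rest. The gene (AT2G38470, chr2:16108235-16110766, plus strand, 5 exons) was 3.54-fold higher in stable than in wild type leaves (log2 1.82, SE 0.38, adjusted p = 0.0263) and 4.12-fold higher than in the knockout-labelled line (log2 2.04, SE 0.39, adjusted p = 0.0286). Without stable library 1 the values were 1.38 (edgeR adjusted p = 0.0259) and 1.60 (edgeR adjusted p = 0.0149). The call against wild type was lost without wild type library 1 (adjusted p = 0.0557) or 2 (adjusted p = 0.0587) and with only these groups in the fit (adjusted p = 0.0845). The call against the knockout-labelled line was lost without stable library 2 (adjusted p = 0.0627) or any knockout-labelled library (adjusted p = 0.0549 to 0.126).

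The other well-expressed class I genes varied less. WRKY26, which acts with WRKY33 in heat tolerance, had 56.2, 38.5 and 32.6 RPKM in stable libraries, 50.1, 39.5 and 39.3 RPKM in knockout-labelled libraries and 22.2, 39.7 and 36.7 RPKM in wild type libraries. WRKY25, of the same heat tolerance group, had 37.95, 44.4 and 26.1 RPKM in stable libraries, 24.5, 35.5 and 19.6 RPKM in knockout-labelled libraries and 14.9, 35.6 and 28.1 RPKM in wild type libraries. Wild type library 1 was the lowest for each, the groups overlapped and neither gene was called. WRKY3, named in resistance to necrotrophs, had 39.4, 26.2 and 28.4 RPKM in stable libraries, 43.02, 43.1 and 36.3 RPKM in knockout-labelled libraries and 24.6, 25.4 and 33.1 RPKM in wild type libraries. The knockout-labelled libraries lay above the wild type ones, with a log2 fold change of 0.44 (SE 0.15, adjusted p = 0.151). WRKY20, at 7.95 to 10.5 RPKM in all libraries, had the smallest standard error of the class, 0.07 in each comparison, and fold changes of -0.13, -0.17 and 0.04 in stable minus wild type, knockout-labelled minus wild type and stable minus knockout-labelled, the last of which was -0.15 under library totals alone.

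Class IId holds calmodulin-binding factors, and its close relatives WRKY11 and WRKY17, which both restrain basal resistance to Pseudomonas, changed in opposite directions. WRKY11 had 57.7, 40.2 and 40.9 RPKM in stable libraries, 14.8, 19.1 and 19.5 RPKM in knockout-labelled libraries and 12.1, 20.4 and 23.4 RPKM in wild type libraries. All 3 stable libraries were above all others, and the other groups overlapped. WRKY11 (AT4G31550, chr4:15289788-15291934, minus strand, 8 exons) was 2.61-fold higher in stable than in wild type leaves (log2 1.38, SE 0.24, adjusted p = 0.0123) and log2 1.56 higher than in the knockout-labelled line (SE 0.24, adjusted p = 0.0172). The first call held in edgeR without any single library (adjusted p up to 0.0408), while the second was lost without stable library 2 (adjusted p = 0.0542), knockout-labelled library 1 (adjusted p = 0.0942) or knockout-labelled library 2 (adjusted p = 0.0834).

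WRKY17 had 2.42, 2.00 and 2.49 RPKM in stable libraries, 3.22, 4.78 and 2.75 RPKM in knockout-labelled libraries and 4.76, 5.13 and 5.46 RPKM in wild type libraries. The stable libraries were the lowest, and the knockout-labelled libraries lay between, with their highest library level with the lowest wild type one. WRKY17 (AT2G24570, chr2:10437353-10439469, minus strand, 3 exons) fell in the stable line against wild type (log2 -1.07, SE 0.19, adjusted p = 0.0136) and was not called in knockout-labelled against wild type leaves (log2 -0.63, SE 0.18, adjusted p = 0.12). The call was lost without stable library 2 (edgeR adjusted p = 0.0577) or wild type library 3 (edgeR adjusted p = 0.05). The WRKY11 level per WRKY17 level was 23.8, 20.1 and 16.4 in stable libraries, against 4.60, 3.998 and 7.09 in knockout-labelled and 2.55, 3.97 and 4.29 in wild type libraries.

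WRKY15, a class IId factor of leaf growth and stress tolerance, had 49.7, 53.5 and 41.1 RPKM in stable libraries, 20.5, 31.8 and 21.1 RPKM in knockout-labelled libraries and 24.7, 44.3 and 33.3 RPKM in wild type libraries. Stable and knockout-labelled libraries did not overlap, and the gene (AT2G23320) was higher in the stable line by log2 1.18 (SE 0.24, adjusted p = 0.0315), with 0.58 against wild type (SE 0.23, adjusted p = 0.154). The call was lost without stable library 2 (adjusted p = 0.114) or 3 (adjusted p = 0.0557) and without any knockout-labelled library (adjusted p = 0.0629 to 0.134). WRKY21, WRKY39 and WRKY7 of the same class ranged over 9.60 to 13.99, 5.18 to 8.54 and 3.86 to 8.59 RPKM in all libraries and were not called.

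**Figure D4:**
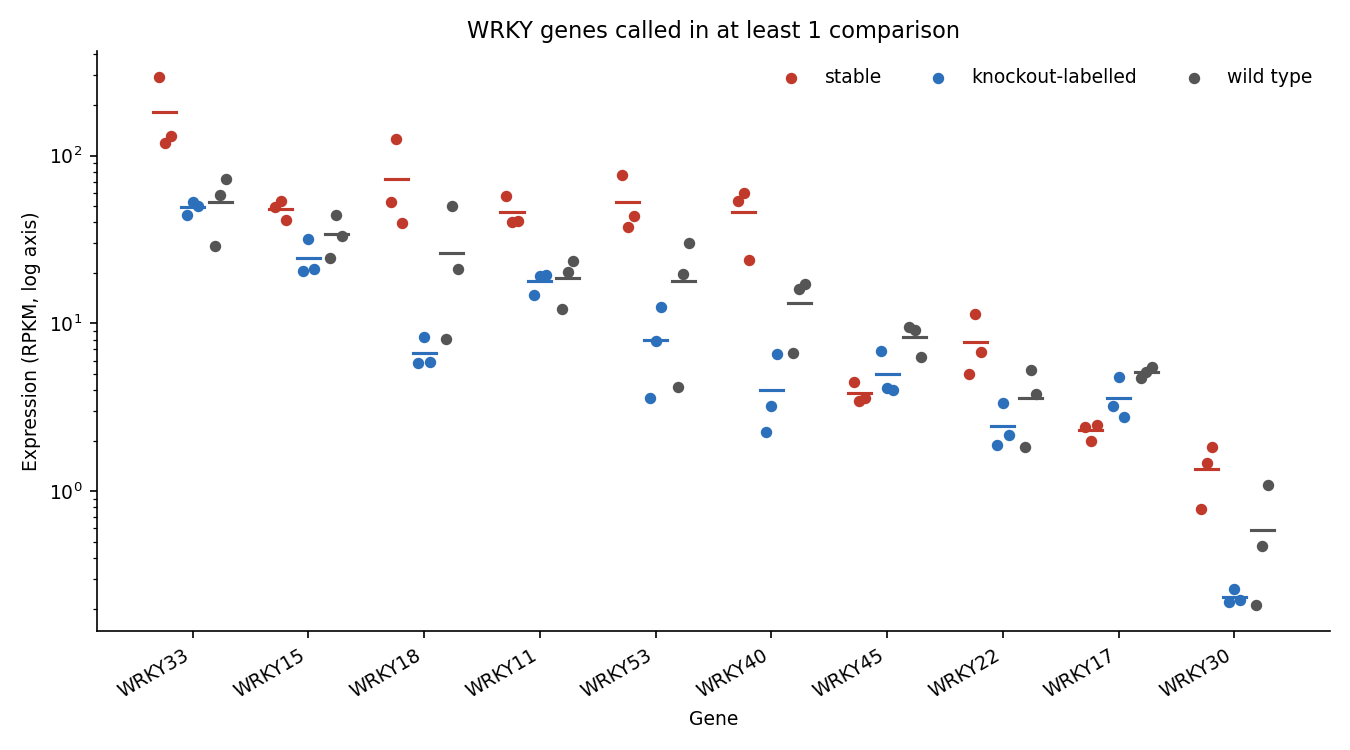
Expression in RPKM (y axis, log scale) of the 10 WRKY genes called in at least 1 comparison (x axis, ordered by mean level) in the stable line, the knockout-labelled line and the wild type. Points are single libraries and lines are means of 3; WRKY33 and WRKY11 lie higher in the stable line than in both other groups, WRKY17 and WRKY45 lie lower in it than in the wild type, and the knockout-labelled means of WRKY18 and WRKY40 lie lowest.

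The class IIa factors WRKY18, WRKY40 and WRKY60 pair with each other through leucine zippers and are known as partly redundant brakes on defence genes. WRKY40 had 53.6, 60.2 and 23.8 RPKM in stable libraries, 2.24, 3.20 and 6.58 RPKM in knockout-labelled libraries and 6.64, 15.9 and 17.2 RPKM in wild type libraries. The 3 groups did not overlap, in the order stable, wild type, knockout-labelled, although the highest knockout-labelled library (3) and the lowest wild type library (1) were nearly level. WRKY40 (AT1G80840, chr1:30383561-30385499, plus strand, 4 exons) was 12.97-fold higher in the stable than in the knockout-labelled line (log2 3.70, SE 0.57, adjusted p = 0.0181). It differed from wild type by 1.87 in the stable line (SE 0.53, adjusted p = 0.0635) and by -1.82 in the knockout-labelled line (SE 0.54, adjusted p = 0.125), neither of them called by edgeR. The value in the stable line was called by DESeq2 (adjusted p = 0.00283) and by limma-voom (adjusted p = 0.0455), and the one in the knockout-labelled line by DESeq2.

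WRKY18 had 53.1, 125 and 39.6 RPKM in stable libraries, 5.80, 8.24 and 5.86 RPKM in knockout-labelled libraries and 8.09, 49.7 and 20.98 RPKM in wild type libraries. The wild type libraries were spread over a wide range that reached into the stable one, while the knockout-labelled libraries were close together and far below the stable ones. WRKY18 (AT4G31800, chr4:15382777-15385100, plus strand, 9 exons) was 12.8-fold higher in the stable than in the knockout-labelled line (log2 3.68, SE 0.71, adjusted p = 0.0293). The values were 1.58 for stable minus wild type (SE 0.65, adjusted p = 0.164) and -2.10 for knockout-labelled minus wild type (SE 0.67, adjusted p = 0.143).

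WRKY60 did not share that pattern in its values, with 12.03, 5.93 and 4.96 RPKM in stable libraries, 11.3, 10.6 and 9.44 RPKM in knockout-labelled libraries and 9.94, 8.48 and 16.1 RPKM in wild type libraries. Its groups overlapped, and its log2 fold change was -0.29 in stable minus knockout-labelled (SE 0.32, adjusted p = 0.56). The difference between WRKY60 and its partners was not tested. The WRKY40 level per WRKY60 level was 4.45, 10.2 and 4.80 in stable libraries, against 0.198, 0.301 and 0.697 in knockout-labelled and 0.668, 1.88 and 1.07 in wild type libraries. In stable minus knockout-labelled, the WRKY40 call was lost without stable library 2 (adjusted p = 0.0603), knockout-labelled library 1 (adjusted p = 0.0942) or 2 (adjusted p = 0.0907). The WRKY18 call was lost without stable library 2 (adjusted p = 0.0874) or any knockout-labelled library (adjusted p = 0.0603 to 0.131), where its fold change stayed between 2.94 and 3.83.

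Class III includes regulators of senescence and salicylic acid defence. WRKY53, which promotes leaf senescence, had 76.9, 37.7 and 43.8 RPKM in stable libraries, 3.60, 7.87 and 12.5 RPKM in knockout-labelled libraries and 4.16, 19.6 and 29.9 RPKM in wild type libraries. Every stable library lay above all others, and wild type library 1 lay among the knockout-labelled ones. WRKY53 (AT4G23810, chr4:12392370-12393982, minus strand, 2 exons) was 7.36-fold higher in the stable than in the knockout-labelled line (log2 2.88, SE 0.71, adjusted p = 0.0484). The call ended without stable library 2 (adjusted p = 0.124) or 3 (adjusted p = 0.0952) or any knockout-labelled library (adjusted p = 0.0597 to 0.166). It also ended under library totals alone (adjusted p = 0.0501), with no filter on low counts (adjusted p = 0.0504) and in limma-voom (adjusted p = 0.055). Against wild type it gave 1.62 in the stable line (SE 0.67, adjusted p = 0.166) and -1.26 in the knockout-labelled line (SE 0.67, adjusted p = 0.346).

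WRKY30, which interacts with WRKY53, was low throughout. It had 0.784, 1.47 and 1.83 RPKM in stable libraries, 0.219, 0.260 and 0.225 RPKM in knockout-labelled libraries and 0.211, 0.469 and 1.09 RPKM in wild type libraries. These values rest on 31 to 93 reads per stable, 10 to 13 per knockout-labelled and 10 to 57 per wild type library. It was log2 2.74 higher in the stable than in the knockout-labelled line (SE 0.61, adjusted p = 0.0394). The call was lost without stable library 2 (adjusted p = 0.126) or 3 (adjusted p = 0.0966), without any knockout-labelled library (adjusted p = 0.0711 to 0.151) and in limma-voom (adjusted p = 0.0595).

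WRKY70 and its relative WRKY54, which hold senescence back and shift defence towards salicylic acid, were not called in any comparison. WRKY70 had 97.8, 36.4 and 34.9 RPKM in stable libraries, 34.7, 48.4 and 50.4 RPKM in knockout-labelled libraries and 22.2, 25.5 and 77.3 RPKM in wild type libraries. WRKY54 had 16.1, 4.33 and 3.57 RPKM in stable libraries, 4.44, 8.23 and 6.83 RPKM in knockout-labelled libraries and 2.03, 2.97 and 8.52 RPKM in wild type libraries. Stable library 1 and wild type library 3 were far above the other libraries of their groups for both genes.

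WRKY46, which acts with WRKY53 and WRKY70 in basal resistance, showed the same high stable library 1, with 24.6, 12.1 and 6.68 RPKM in stable libraries, 6.86, 12.3 and 6.01 RPKM in knockout-labelled libraries and 4.43, 8.15 and 8.46 RPKM in wild type libraries. WRKY41, which also acts in seed dormancy, had 4.10, 0.868 and 0.796 RPKM in stable libraries, 0.743, 0.746 and 0.650 RPKM in knockout-labelled libraries and 0.300, 0.336 and 1.39 RPKM in wild type libraries. WRKY38, a repressor of basal defence, had 1.12, 0.828 and 0.407 RPKM in stable libraries, 0.0865, 0.336 and 0.708 RPKM in knockout-labelled libraries and 0.229, 0.160 and 0.227 RPKM in wild type libraries. None of the 3 was called. All 8 tested class III members had a log2 fold change above 0 in stable minus wild type (median 1.20) and in stable minus knockout-labelled (median 1.08). Of all 19409 genes, 9904 and 9694 were above 0. Without stable library 1 the class III counts were 6 of 8 (median 0.51) and 5 of 8 (median 0.46). With no filter on low counts 9 of 12 were above 0 in stable minus wild type (median 0.97). Under library totals alone 7 of 8 were in stable minus knockout-labelled.

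Among class IIe genes, the flagellin-response pair WRKY22 and WRKY29, which act below a MAP kinase cascade, differed in level. WRKY22 (AT4G01250) had 4.97, 11.4 and 6.78 RPKM in stable libraries, 1.90, 3.33 and 2.15 RPKM in knockout-labelled libraries and 1.82, 5.24 and 3.79 RPKM in wild type libraries. It was log2 1.88 higher in the stable than in the knockout-labelled line (SE 0.46, adjusted p = 0.0479). The call was lost without stable library 2 (adjusted p = 0.161) or 3 (adjusted p = 0.0955), without any knockout-labelled library (adjusted p = 0.0852 to 0.175). It was also lost under library totals alone (adjusted p = 0.0505), with no filter on low counts (adjusted p = 0.0516), with only these groups in the fit (adjusted p = 0.0619) and in limma-voom (adjusted p = 0.0702). WRKY29 had 0.867, 0.860 and 1.02 RPKM in stable libraries, 1.26, 1.39 and 1.12 RPKM in knockout-labelled libraries and 0.936, 1.27 and 0.835 RPKM in wild type libraries, and its groups were close to each other.

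Among members with roles in phosphate nutrition, WRKY45 was the 1 called. This gene, a class IIc activator of phosphate uptake, had 4.47, 3.46 and 3.58 RPKM in stable libraries, 6.82, 4.11 and 4.005 RPKM in knockout-labelled libraries and 9.49, 9.07 and 6.26 RPKM in wild type libraries. The stable libraries lay below the wild type ones, and the gene (AT3G01970) fell by 1.03 on the log2 scale (SE 0.24, adjusted p = 0.0356), with -0.85 in the knockout-labelled line (SE 0.24, adjusted p = 0.112). That call was lost without stable library 2 (edgeR adjusted p = 0.118) or 3 (edgeR adjusted p = 0.101) and without wild type library 1 (edgeR adjusted p = 0.11) or 2 (edgeR adjusted p = 0.0847).

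WRKY42 and WRKY6, class IIb repressors of the phosphate exporter gene PHO1, were not called. WRKY42 had 9.16, 2.38 and 2.02 RPKM in stable libraries, 6.13, 9.20 and 6.49 RPKM in knockout-labelled libraries and 0.496, 1.23 and 2.096 RPKM in wild type libraries. The knockout-labelled libraries lay above the wild type ones, with the largest fold change of that comparison among non-overlapping members, 2.39 (SE 0.64, adjusted p = 0.103), and stable minus wild type was 1.85 (SE 0.63, adjusted p = 0.106). WRKY6 had 17.6, 7.76 and 7.92 RPKM in stable libraries, 8.57, 10.7 and 9.11 RPKM in knockout-labelled libraries and 9.02, 13.3 and 15.9 RPKM in wild type libraries.

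WRKY75, which responds to phosphate starvation and promotes senescence, had 2.50, 0.830 and 0.626 RPKM in stable libraries, 1.67, 1.75 and 0.848 RPKM in knockout-labelled libraries and 22.5, 2.63 and 0.794 RPKM in wild type libraries. Wild type library 1 alone was high, and the log2 fold changes of -2.68 in the stable and -2.72 in the knockout-labelled line were not called (SE 1.11 and 1.10, adjusted p = 0.169 and 0.221). PHO1 itself had 8.81, 4.78 and 11.9 RPKM in stable libraries, 14.9, 18.7 and 13.7 RPKM in knockout-labelled libraries and 9.81, 14.4 and 11.4 RPKM in wild type libraries and was not called.

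Other class IIc genes with separate groups in a comparison were also not called by edgeR. WRKY13, WRKY28 and WRKY48 lay wholly higher in the stable than in the knockout-labelled line (edgeR adjusted p = 0.0983, 0.0835 and 0.078), and DESeq2 called each of them there. WRKY13 and WRKY71 lay wholly lower in the knockout-labelled line than in the wild type (edgeR adjusted p = 0.292 and 0.518). WRKY57, known for drought tolerance and for slowing jasmonate-induced senescence, had 7.79, 4.56 and 3.43 RPKM in stable libraries, 9.97, 8.98 and 6.83 RPKM in knockout-labelled libraries and 9.94, 8.59 and 11.5 RPKM in wild type libraries, with -0.87 in stable minus wild type (SE 0.26, adjusted p = 0.0705). WRKY28, reported to act on the salicylic acid gene ICS1, had 2.63, 2.80 and 1.36 RPKM in stable libraries, 1.40, 1.09 and 1.27 RPKM in knockout-labelled libraries and 1.89, 2.25 and 3.34 RPKM in wild type libraries, with -1.10 in knockout-labelled minus wild type (SE 0.32, adjusted p = 0.121). WRKY12, a regulator of pith cell walls and flowering, had 1.24, 0.741 and 2.05 RPKM in stable libraries, 1.85, 2.29 and 1.80 RPKM in knockout-labelled libraries and 1.40, 1.28 and 0.796 RPKM in wild type libraries. WRKY23, an auxin-inducible factor, was the 1 member that lay wholly lower in the stable than in the knockout-labelled line. It had 1.83, 1.71 and 1.79 RPKM in stable libraries, 2.53, 2.76 and 2.24 RPKM in knockout-labelled libraries and 2.08, 2.37 and 1.75 RPKM in wild type libraries (stable minus knockout-labelled -0.30, SE 0.15, adjusted p = 0.205).

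The 17 members that were not tested were low or not detected in these leaves. WRKY10 and WRKY66 had no read in any library, and the other 15 stayed under 1 RPKM, with 0.862 RPKM as their highest value. That value belongs to WRKY62, the partner of WRKY38, which had 0.662, 0.862 and 0.0934 RPKM in stable libraries, 0.0521, 0.0238 and 0.0487 RPKM in knockout-labelled libraries and 0.200, 0.192 and 0.228 RPKM in wild type libraries. Its reads numbered 22, 32 and 4 in stable, 2, 1 and 2 in knockout-labelled and 8, 10 and 10 in wild type libraries. With no filter on low counts edgeR called it in stable minus knockout-labelled (log2 3.80, adjusted p = 0.0424). Without stable library 3 it passed the filter and was called in stable minus knockout-labelled (4.31, edgeR adjusted p = 0.0158) and in stable minus wild type (1.96, edgeR adjusted p = 0.0415). It passed there through the stable libraries where it was highest, so these calls add no support. Without any 1 knockout-labelled library it was tested and not called in stable minus knockout-labelled (edgeR adjusted p = 0.0672 to 0.141). Nor was it called in stable minus wild type without any 1 wild type library (edgeR adjusted p = 0.347 to 0.359) or with no filter (edgeR adjusted p = 0.278).

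Intron reads, which come largely from unspliced RNA, are given for WRKY33, WRKY40 and WRKY11, which were picked after their values were seen. WRKY33 had 33.5, 7.50 and 6.22 intron reads per 1000000 gene reads in stable libraries, 3.92, 3.94 and 4.06 in knockout-labelled libraries and 2.22, 4.22 and 9.88 in wild type libraries. WRKY40 had 10.3, 7.92 and 2.07 in stable libraries, 0.662, 0.684 and 0.757 in knockout-labelled libraries and 0.777, 2.21 and 2.88 in wild type libraries. WRKY11 had 8.01, 3.75 and 3.91 in stable libraries, against 2.02, 2.45 and 2.57 in knockout-labelled and 1.53, 2.14 and 2.83 in wild type libraries. For WRKY11 and, against the knockout-labelled line, for all 3 genes, the stable libraries did not overlap the others, while for WRKY33 and WRKY40 they overlapped the wild type. On the same scale WRKY18 had 6.47, 10.5 and 3.65 in stable libraries. It had 0.633, 0.684 and 0.460 in knockout-labelled and 0.555, 3.33 and 2.60 in wild type libraries, so the lowest stable library lay just above the highest wild type one. WRKY53 had 2.27, 0.685 and 0.673 in stable libraries. It had 0.144, 0.368 and 0.460 in knockout-labelled and 0.111, 0.488 and 0.682 in wild type libraries, which overlapped the stable ones. WRKY30 had 1, 0 and 2 intron reads in stable, 0, 0 and 1 in knockout-labelled and 1, 0 and 0 in wild type libraries, too few for a comparison.

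No source used here states whether the counting was stranded. Where genes on opposite strands overlap, their reads therefore cannot be told apart. WRKY33 shares 272 bases with the long noncoding RNA AT2G08965, listed at 0 RPKM in every library, and 26 bases with AT2G38480. WRKY53 shares 341 bases with AT4G23800, a high mobility group gene at 0.42 to 3.17 RPKM, and WRKY40 shares 51 bases with AT1G80850 at 0.89 to 2.53 RPKM. These neighbours were well below the WRKY genes' levels in the stable libraries, and none of the tested neighbours was called. WRKY41 shares 517 bases with AT4G11080, and 85.9% of its reads were unique, the lowest share among tested members.

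The MAP kinase cascade, which phosphorylates WRKY33 and other members, was followed with 10 genes. Of these, 2 were higher in stable than in wild type leaves, where 5.09% of all genes were called higher. In stable against knockout-labelled leaves 2 were higher, where 4.87% of all genes were. None was called lower by edgeR in these comparisons, where 3.78% and 2.09% of all genes were. In knockout-labelled against wild type leaves edgeR called none, where 1.66% of all genes were called. At an unadjusted p under 0.05, edgeR had 0 lower in any of the 3 comparisons and 0 higher in the last, and DESeq2 and limma-voom also called 0 of these. The medians were 0.29, 0.31 and -0.03 in stable minus wild type, stable minus knockout-labelled and knockout-labelled minus wild type. MPK3, a kinase that phosphorylates WRKY33, had 255, 184 and 162 RPKM in stable libraries, 120, 128 and 107 RPKM in knockout-labelled libraries and 92.0, 126 and 103 RPKM in wild type libraries. It rose in the stable line against wild type (0.98, SE 0.16, adjusted p = 0.0101) and against the knockout-labelled line (0.95, SE 0.16, adjusted p = 0.0201). MKK1, a kinase above MPK4, was called against wild type (0.59, SE 0.14, adjusted p = 0.0398) and MPK11, a relative of MPK4, against the knockout-labelled line (1.34, SE 0.33, adjusted p = 0.049), and both calls were lost without some libraries. The edgeR adjusted p was 0.104 to 0.137 for MKK1 without stable library 2 or 3 or wild type library 1 or 3, and 0.0821 to 0.176 for MPK11 without stable library 2 or any knockout-labelled library. MKK1 was also not called under library totals alone or with only the stable and wild type groups in the fit. In both, MPK3 was the 1 cascade gene called in stable minus wild type. The MPK3 call against wild type held without any single library, and the other was lost without stable library 2 (edgeR adjusted p = 0.0684), knockout-labelled library 1 (edgeR adjusted p = 0.103) or 2 (edgeR adjusted p = 0.0889).

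VQ proteins bind WRKY domains and tune their activity, and 6 were followed. MKS1, which links MPK4 to WRKY33, had 25.2, 15.6 and 14.9 RPKM in stable libraries, 12.8, 13.6 and 11.6 RPKM in knockout-labelled libraries and 7.92, 10.1 and 12.7 RPKM in wild type libraries. It was higher in stable than in wild type leaves (0.92, SE 0.20, adjusted p = 0.0303). SIB2, a partner of WRKY33 and a relative of SIB1, was lower in stable than in wild type leaves (-0.73, SE 0.18, adjusted p = 0.0455). The other 4 were not called in that comparison. That is 1 of 6 higher and 1 of 6 lower, where 5.09% and 3.78% of all genes were. In stable minus knockout-labelled and knockout-labelled minus wild type edgeR called none of the 6, where 6.96% and 1.66% of all genes were called. Before adjustment (p under 0.05) edgeR gave 1 higher in each, where 16.6% and 9.77% of all genes were. DESeq2 called 1 higher in stable minus knockout-labelled, where 11.4% of all genes were. It called 0 in knockout-labelled minus wild type, where 4.04% were higher and 5.12% lower. For limma-voom it was 0 in both. The MKS1 call was lost under library totals alone (edgeR adjusted p = 0.0651), without stable library 2 (edgeR adjusted p = 0.0723), without wild type library 1 (edgeR adjusted p = 0.0814) or 2 (edgeR adjusted p = 0.0713) and with only these groups in the fit (edgeR adjusted p = 0.0931). The SIB2 call was lost without any 1 of stable libraries 1, 2 and 3 or wild type libraries 1 and 2 (edgeR adjusted p = 0.0547 to 0.137). In stable minus wild type, 0 VQ genes were called lower with no filter on low counts, in limma-voom or with only these groups in the fit. On unique reads, where 5 VQ genes were tested, 0 were called lower as well.

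Of 24 genes reported to lie downstream of WRKY factors, 21 were tested. In stable minus wild type edgeR called 3 higher and 0 lower, where 5.09% and 3.78% of all genes were. DESeq2 called 5 higher and 3 lower, where 9.58% and 8.03% of all genes were. With limma-voom 2 were higher and 0 lower, where 4.72% and 3.56% of all genes were. Before adjustment (p under 0.05) edgeR gave 6 higher and 7 lower, where 14.4% and 12.7% of all genes were. In knockout-labelled minus wild type 1 was higher and 1 lower, where 0.927% and 0.732% of all genes were. Before adjustment edgeR gave 2 higher and 8 lower there, where 9.77% and 9.85% of all genes were. DESeq2 called 2 higher and 4 lower there, against 4.04% and 5.12%. In stable minus knockout-labelled 2 were higher and 1 lower, against 4.87% and 2.09% of all genes. Before adjustment these were 7 and 2, against 16.6% and 14%, and with DESeq2 5 and 1, against 11.4% and 7.38%. The median log2 fold changes were 0.37, 0.11 and 0.35 in these comparisons. ACS6, an ethylene synthesis gene known as a WRKY33 target, had 57.2, 32.9 and 32.6 RPKM in stable libraries, 13.6, 16.3 and 18.3 RPKM in knockout-labelled libraries and 20.5, 17.8 and 23.996 RPKM in wild type libraries. It rose against wild type (1.04, SE 0.21, adjusted p = 0.0223) and against the knockout-labelled line (1.52, SE 0.21, adjusted p = 0.0141). The first of these calls was lost without stable library 2 (edgeR adjusted p = 0.0528) or wild type library 1 (edgeR adjusted p = 0.072) or 2 (edgeR adjusted p = 0.0608). It was also lost with only the stable and wild type groups in the fit, where ABI5 was the 1 downstream gene called. The second was lost without knockout-labelled library 1 (edgeR adjusted p = 0.0845) or 2 (edgeR adjusted p = 0.0749). The camalexin gene PAD3, the best known WRKY33 target, was highest in the wild type by its mean, with 6.82, 3.82 and 4.23 RPKM in stable libraries, 1.18, 1.24 and 0.85 RPKM in knockout-labelled libraries and 48.5, 5.95 and 8.23 RPKM in wild type libraries. It fell in the knockout-labelled line (-4.39, SE 0.82, adjusted p = 0.0454). The call was lost without any knockout-labelled library (edgeR adjusted p = 0.103 to 0.175) or wild type library 3 (edgeR adjusted p = 0.0734), with only these groups in the fit (edgeR adjusted p = 0.0733) and in limma-voom (adjusted p = 0.16), and kept at -2.81 without wild type library 1 (edgeR adjusted p = 0.0152). PAD3 was not called in stable minus wild type (-2.02, SE 0.73, adjusted p = 0.121), the direction opposite to WRKY33. In stable minus knockout-labelled, where the stable libraries lay wholly above, its value was 2.37, the direction of WRKY33, and it was not called either (SE 0.77, adjusted p = 0.0922), though it was with only these groups in the fit (edgeR adjusted p = 0.017).

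JAZ8, a jasmonate repressor gene repressed by WRKY40 group factors, had 8.30, 28.3 and 4.84 RPKM in stable libraries, 0.63, 0.55 and 0.39 RPKM in knockout-labelled libraries and 4.58, 8.90 and 2.18 RPKM in wild type libraries. It was higher in the stable than in the knockout-labelled line (4.95, SE 0.86, adjusted p = 0.0235), the same direction as WRKY40 and WRKY18, and the call was lost without any 1 knockout-labelled library (edgeR adjusted p = 0.0523 to 0.117). ABI5, an abscisic acid response factor and WRKY40 target, was higher in both lines, with 1.01, 0.54 and 0.89 RPKM in stable libraries, 0.83, 1.32 and 0.90 RPKM in knockout-labelled libraries and 0.21, 0.21 and 0.23 RPKM in wild type libraries. The log2 fold change was 1.97 in the stable line (SE 0.28, adjusted p = 0.0067) and 2.11 in the knockout-labelled line (SE 0.28, adjusted p = 0.0184). The first call held without any single library, and the second was lost without knockout-labelled library 1 or 2 or any wild type library (edgeR adjusted p = 0.0553 to 0.0837). GL2, a trichome regulator reported downstream of WRKY44, was lower in the stable than in the knockout-labelled line (-1.36, SE 0.22, adjusted p = 0.0201), beside 3 guard cell and trichome markers, GL1 at 0 in most libraries among them, that summed to 14.9 to 16.8 RPKM in stable and 23.6 to 33.2 RPKM in knockout-labelled libraries; their part in it was not tested. That call was lost without stable library 2 or 3 or knockout-labelled library 1 or 2 (edgeR adjusted p = 0.0521 to 0.102). SARD1, an activator of salicylic acid synthesis, was called in stable minus wild type (1.35, SE 0.35, adjusted p = 0.0499) and lost that call without any 1 of the 6 libraries but stable 3 (edgeR adjusted p = 0.0554 to 0.141). It was also not called with only these groups in the fit. The senescence gene SAG12, a marker for the process that WRKY53 promotes, was at 52.6, 1.05 and 0.27 RPKM in stable libraries, 1.36, 394 and 3.54 RPKM in knockout-labelled libraries and 12.1, 1.61 and 0.32 RPKM in wild type libraries. Knockout-labelled library 2 had the highest level, and stable library 1 and wild type library 1 also lay far above the other libraries of their groups.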

How the data were processed

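Leaf RNA was purified with the RNeasy plant kit, and libraries came from a NEB Next Ultra kit, per the labels' protocols. Per the file headers, the authors deposited whole-number counts for each gene (exon reads in total and unique ones, reads over the gene, and intron reads). They also deposited RPKM values. For genes with exon reads these proved to be the exon read total over exon length in kilobases and 1 constant per library. In each library 461 to 530 genes without an exon read were given an RPKM above 0. The submitters' processing notes name TAIR10; aligner, counter and strand setting are not stated in any source used here. Columns were matched to samples by title, and 0 columns stayed unmatched.

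Total exon read counts were fitted for the whole table with edgeR 4.0.16 in R 4.3.3 (filterByExpr with minimum count 10, minimum total 15 and share 0.7; TMM; glmQLFit and glmQLFTest; all 9 libraries, a mean per group, no covariate). This left 19409 genes and 6 residual degrees of freedom, with a prior of 2.36 and a biological coefficient of variation of 0.247. P values were Benjamini-Hochberg adjusted over all genes tested at a threshold of 0.05, and the standard error is the log2 fold change divided by the square root of F. Non-overlap was read on TMM-scaled counts. RPKM was used for levels. DESeq2 1.42.0 and limma 3.58.1 were alternatives, with library totals, size factors, unique reads, no filter, only the groups compared, a replicate block and each library left out. The fit was tested on simulated counts with known changes. Promoters and overlaps were read from the reference genome, in which 32532 of 32548 matched loci had the table's start and end.

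Members named with values were those called, the 8 of highest mean, up to 3 rises and 3 falls per comparison with separate groups and a mean of at least 1 RPKM, and well-studied defence and senescence members. Members, classes, lists of MAP kinase, VQ and downstream genes and markers of mesophyll, floral organs, phloem, xylem, root, guard cells and trichomes were chosen with earlier results of these data known.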

Additional observations from a re-analysis of the deposited data

Results flagged for a closer look

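The departures of the stable and knockout-labelled lines from the shared wild type differed for 8 members by the direct test of stable minus knockout-labelled (edgeR, Benjamini-Hochberg adjusted over all genes). The log2 difference was 3.70 for WRKY40, 3.68 for WRKY18, 2.88 for WRKY53, 2.74 for WRKY30, 2.04 for WRKY33, 1.88 for WRKY22, 1.56 for WRKY11 and 1.18 for WRKY15. For WRKY11 and WRKY33 the stable line differed from wild type at the same threshold, and for the other 6 neither line did. In all 8 the stable line was higher in 3 of 3 libraries than every knockout-labelled library on scaled counts, as it was for 16.3% of all genes. The 8 were picked by the same comparison, so this adds no support to their calls. None of the 8 was called by edgeR without stable library 2 or without knockout-labelled library 1 or 2.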

How the results depend on the processing

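The number of WRKY genes called in stable minus wild type was 4, and 11 with DESeq2; leaving out 1 library gave 2 to 7. In knockout-labelled minus wild type it was 0, and 6 with DESeq2. In stable minus knockout-labelled it was 8, and 5 with limma-voom; leaving out 1 library gave 0 to 13. Size factors, library totals, no filter, unique reads and a fit of only the groups compared gave 3 to 4, 0 and 6 to 8 calls. Replicate numbers were not shown to pair the samples: deviations of same-numbered libraries correlated between -0.44 and 0.52. With the replicate number as a block, 5, 0 and 6 members were called in stable minus wild type, knockout-labelled minus wild type and stable minus knockout-labelled. In stable minus wild type the block added WRKY15 and WRKY22 and lost WRKY33 (adjusted p = 0.0612); in stable minus knockout-labelled it lost WRKY33 (0.0506) and WRKY53 (0.052). It also lost MKS1 (0.0663) and SARD1 (0.0645) in stable minus wild type, PAD3 (0.064) and ABI5 (0.0551) in knockout-labelled minus wild type and MPK11 (0.0719) in stable minus knockout-labelled. Over all genes, 1721 were called in stable minus wild type, with 3418 by DESeq2, 615 with only these groups fitted and 584 to 3786 without 1 library. In knockout-labelled minus wild type 322 were called, with 1778 by DESeq2, 134 with the block and 10 to 144 without 1 library. In stable minus knockout-labelled 1351 were called, with 3641 by DESeq2, 703 with only these groups fitted and 3 to 5241 without 1 library. The direction of the fold changes given in the text for single WRKY genes held in these alternatives with 4 exceptions. WRKY20 in stable minus knockout-labelled was -0.15 under library totals alone, which shifts all genes. In fits without 1 library WRKY11 ranged from -0.40 to 0.0218 and WRKY33 from -0.51 to 0.0681 in knockout-labelled minus wild type, and WRKY45 from -0.33 to 0.11 in stable minus knockout-labelled; the cause was not tested. The difference in WRKY read share between knockout-labelled and wild type ranged from -0.0157 to 0.00848 percentage points when 1 library was left out. Library totals alone moved the median of all genes by -0.19 in stable minus knockout-labelled and by 0.12 in knockout-labelled minus wild type. Among called pathway genes, MPK3 and ABI5 in stable minus wild type held in every alternative. Low counts limit WRKY30 and the 17 members not tested.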
